A study of Mus musculus with 2 samples.

Results

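Antibody-recovered DNA was examined around 4 genes of the hypoxia response, Hif3a, Vegfa, Hif1a and Epas1, in 2 libraries of chromatin immunoprecipitation followed by sequencing (ChIP-seq) made with an antibody against Tnni2. Each gene was represented by a fixed stretch of 200 kb placed around it by position alone, so that 4 windows were set against 11821 windows of the same length on chromosomes 1 to 19. Both libraries came from primary osteoblasts, the bone-forming cells, of 129sv mice. The first, here called the del175k library, was from mice homozygous for that allele of Tnni2, and the other from wild-type littermates. Tnni2 encodes the inhibitory subunit of the fast skeletal muscle troponin complex. The labels name 1 library per genotype, give neither age nor sex, and do not say how the 3 animals in the series text were pooled. An input or control-antibody library was not analysed here, so an excess of reads could not be credited to the antibody, and no comparison between the genotypes had a replicate check.

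The hypoxia-inducible factors bind DNA as pairs of an oxygen-regulated alpha subunit and the stable partner Arnt. Hif1a and Epas1 encode the main activating alpha subunits, which are hydroxylated and degraded through Vhl when oxygen is plentiful and accumulate when it is scarce. Hif3a encodes a further alpha subunit with many splice forms, some of which, such as the inhibitory PAS protein, hold back the other subunits. Vegfa encodes the vascular growth factor that is the best known target of the pathway, and in bone it links blood vessel ingrowth to bone formation. By its title, the published account of these mice ties a Tnni2 mutation to increased Hif3a expression and impeded bone development. The question put to the reads was therefore whether the antibody recovered more DNA at these genes than around them, and more in the del175k library. ChIP reads do not report transcript levels, so nothing here measures expression of any of the 4 genes.

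The promoters are shown because a factor acting on these genes through their starts would be sought there. RefSeq sequences were at hand for 3 of the 4 genes, on build GRCm38.p6, which is not the build of the reads. The first start listed for Hif3a has its 250 upstream bases at chr7:17062428-17062677 on the minus strand, that of Vegfa at chr17:46032378-46032627 on the minus strand, and that of Hif1a at chr12:73907617-73907866 on the plus strand. Capitals mark ACGTG or GCGTG on either strand, the core letters of the hypoxia response element that the factors bind.
Hif3a: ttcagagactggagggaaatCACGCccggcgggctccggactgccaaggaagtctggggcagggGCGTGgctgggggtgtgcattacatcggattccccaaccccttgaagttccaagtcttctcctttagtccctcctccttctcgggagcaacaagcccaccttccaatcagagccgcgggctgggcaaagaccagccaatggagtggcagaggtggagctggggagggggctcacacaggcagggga
Vegfa: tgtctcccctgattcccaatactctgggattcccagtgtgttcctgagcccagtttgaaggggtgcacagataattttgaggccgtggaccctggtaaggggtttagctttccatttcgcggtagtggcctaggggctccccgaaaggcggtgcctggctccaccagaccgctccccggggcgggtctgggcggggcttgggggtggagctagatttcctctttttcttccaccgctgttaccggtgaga
Hif1a: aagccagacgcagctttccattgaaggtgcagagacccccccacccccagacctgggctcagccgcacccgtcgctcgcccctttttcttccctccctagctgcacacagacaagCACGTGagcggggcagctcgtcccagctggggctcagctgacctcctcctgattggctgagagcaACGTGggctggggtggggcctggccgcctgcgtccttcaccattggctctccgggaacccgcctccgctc
Hif3a held GCGTG at 2 places, once on each strand, and no ACGTG. Hif1a held ACGTG 3 times, of which 2 overlap on opposite strands, and no GCGTG. The Vegfa stretch held neither. A further Vegfa start in the table, which is not printed, held 1 match to each. Its 250 bases, at chr17:46025164-46025413 on the minus strand, lie downstream of the first start, so these matches are not ahead of that start. Of all 32851 promoters in the table, 16.6% held ACGTG, 28.2% held GCGTG and 38.6% held at least 1 of them, so a match is common and describes the letters only.

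The del175k library held 2927228 and the wild-type library 2821498 distinct positions on chromosomes 1 to 19, where a position is a chromosome, a 5′ end and a strand. This depth amounted to 1.18 and 1.14 positions per kb. Reads on chromosome 7 reached position 152524453, and coordinates of reads are printed as deposited, counted from 1, on a build that stays uncertain. An annotation of it was not at hand, so the place of each gene inside its window was not marked. According to the RefSeq table, the genes span 31435 bp (Hif3a), 15385 bp (Vegfa), 46231 bp (Hif1a) and 79547 bp (Epas1), each less than its window. Their protein-coding neighbours on either side are Ppp5c and Psg16 for Hif3a, 1600014C23Rik and Mrps18a for Vegfa, Prkch and Snapc1 for Hif1a, and Prkce and Tmem247 for Epas1. Intervals below cover counting error only.

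The 4 windows were densest in reads around Vegfa and sparsest around Hif1a. Over the autosomal mean they lay between 1.09 times (Hif1a, wild type, 95% exact Poisson interval 0.960 to 1.24) and 1.68 times (Vegfa, wild type, 1.51 to 1.85). Around Hif3a (chromosome 7, 17530001 to 17730000) 273 positions were found in the del175k library and 313 in the wild-type one. Expressed per length, these were 1.36 positions per kb (95% exact Poisson interval 1.21 to 1.54) and 1.56 (1.40 to 1.75). Around Vegfa (chromosome 17, 46060001 to 46260000) 372 and 383 positions were found, or 1.86 per kb (1.68 to 2.06) and 1.92 (1.73 to 2.12). These were the densest of the 4 windows in both libraries. Around Hif1a (chromosome 12, 74930001 to 75130000) there were 264 and 249 positions, or 1.32 per kb (1.17 to 1.49) and 1.25 (1.10 to 1.41). Around Epas1 (chromosome 17, 87090001 to 87290000) there were 313 and 353 positions, or 1.56 per kb (1.40 to 1.75) and 1.76 (1.59 to 1.96).

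The order of density was the same in the 2 libraries, Vegfa, then Epas1, Hif3a and Hif1a, but most neighbours in it were not separated by counting error. In the del175k library Vegfa exceeded Epas1 1.19-fold (exact 95% interval 1.02 to 1.39), whereas Epas1 over Hif3a (1.15, 0.972 to 1.35) and Hif3a over Hif1a (1.03, 0.870 to 1.23) did not separate. In the wild-type library Hif3a exceeded Hif1a 1.26-fold (1.06 to 1.49). There Vegfa over Epas1 (1.08, 0.936 to 1.26) and Epas1 over Hif3a (1.13, 0.966 to 1.32) did not separate. Among all 11821 autosomal windows, that of Vegfa lay above 92.9% of them (del175k) and 91.6% (wild type). The window of Hif1a lay above 56.9% and 55.4%, near the middle. The window of Hif3a lay above 60.5% and 75.8%, and that of Epas1 above 76.3% and 86.1%.

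The del175k library did not hold more reads than the wild-type library around any of the 4 genes by more than counting error. The ratio of del175k to wild type, scaled to the positions on chromosomes 1 to 19, was 0.841 around Hif3a (exact Clopper-Pearson 95% interval 0.712 to 0.992). Around Epas1 the ratio was 0.855 (0.732 to 0.998), around Vegfa 0.936 (0.810 to 1.08) and around Hif1a 1.02 (0.856 to 1.22). The intervals of Hif3a and Epas1 lay below 1, by narrow margins. Of all autosomal windows 6.95% had an interval below 1. The share was larger in dense windows, 7.80% in quintile 4 of density, which holds Hif3a, and 23.3% in quintile 5, the densest, which holds Vegfa and Epas1. In no pair among the 4 did the ratios differ beyond counting error: all 6 intervals of a ratio of ratios included 1, with the extremes at 0.823 for Hif3a over Hif1a (0.644 to 1.05) and 1.20 for Hif1a over Epas1 (0.943 to 1.52).

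Over the genome the ratio fell as read density rose, and the windows are therefore also set beside windows of like density. Summed over quintile 4 of windows by density the ratio was 0.971, over the densest quintile 0.923, and over the middle quintile, which holds Hif1a, 1.03. Against these values Hif3a stood at 0.866 (0.733 to 1.02), Epas1 at 0.926 (0.793 to 1.08), Vegfa at 1.01 (0.877 to 1.17) and Hif1a at 0.995 (0.834 to 1.19). With windows of like density as the base, an alternative added once the values were known, all 4 intervals therefore included 1. With every aligned read counted, the interval of Hif3a passed 1 (0.859, 0.734 to 1.004) as did that of Epas1 (0.883, 0.760 to 1.03). Scaled to the median ratio of autosomal windows, both stayed below 1 (Hif3a 0.826, 0.700 to 0.975, and Epas1 0.84, 0.719 to 0.981).

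**Figure D1:**
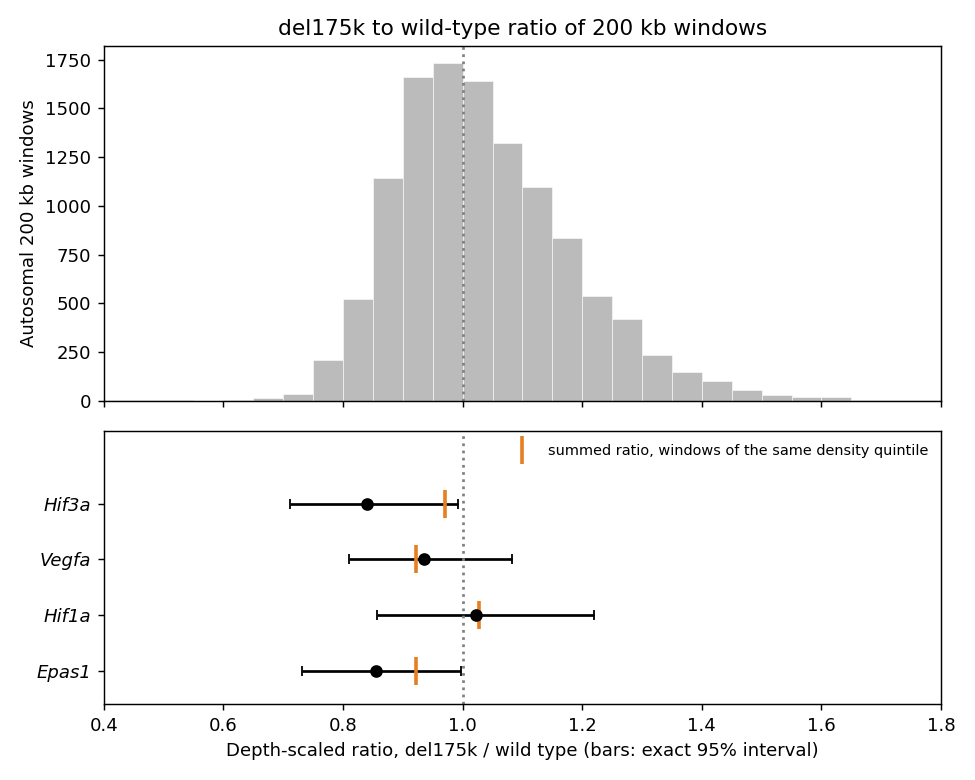
Ratio of del175k over wild type, scaled for depth, in 200 kb windows: grey bars count the autosomal windows, black points are the 4 gene windows with their exact 95% intervals, and orange ticks give the summed ratio of windows of the same density quintile. The points of Hif3a (0.841) and Epas1 (0.855) lie lowest and that of Hif1a (1.02) highest, all within the spread of the autosomal windows.

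No local pile-up of reads was found in any of the windows. A bin was called enriched where its count exceeded the larger of the library mean and the mean of the surrounding 200 kb, at a Benjamini-Hochberg q under 0.01 over all autosomal bins in an exact Poisson test. Of the 1600 bins of 500 bp in the 4 windows, 0 were called in the del175k library and 0 in that of the wild type, where 0.00427% and 0.00429% of all autosomal bins were called. At those rates no call would be foreseen in so few bins, so the absence of calls does not set the windows apart. The lowest q in them was 0.180. At an unadjusted p under 0.05 there were 54 del175k bins (3.38%) and 51 wild-type bins (3.19%), where 2.92% and 2.70% of all autosomal bins had one. Hif3a held 19 and 23 of these bins, Hif1a 15 and 14, Vegfa 11 and 7, and Epas1 9 and 7. These counts are not comparable between windows, because the fill needed to pass rises in whole positions with the background. Bins with 3 or more positions numbered 19 and 26 around Hif3a (12.8 and 18.0 expected at the window mean), and 15 and 14 around Hif1a (11.8 and 10.2). Around Vegfa there were 29 and 28 (27.2 and 29.1 expected), and around Epas1 20 and 27 (18.0 and 24.0).

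The fullest 500 bp bins held 5 to 7 positions, where the window means were below 1. Around Hif3a the fullest bin of the del175k library, from 17677501 to 17678000, held 5 positions against 0.682 expected at the window mean, and 1 position in the wild-type library. A Poisson distribution at that mean gives 0.281 bins this full among 400. The fullest Hif3a bin of the wild-type library, from 17594001 to 17594500, held 6 positions against 0.782 expected, where 0.0655 such bins were expected, and 0 in the del175k library. These places lie 83.5 kb apart and neither was full in both libraries.

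Around Vegfa the fullest 500 bp bin of the del175k library, from 46147001 to 46147500, held 7 positions. That is 7.53 times the window mean (exact 95% Poisson interval 3.03 to 15.5), and 0.0213 bins this full were expected. The wild-type library held 0 positions in it. With bin starts moved by 50% of the bin size, the highest del175k fold around Vegfa was 5.36. The bin of 7 positions, without this move, had a q of 0.270 over all autosomal bins. Of autosomal 200 kb windows of the del175k library, 3.50% held a 500 bp bin with 7 or more positions. The wild-type library had at most 5 positions in a Vegfa bin, in 3 bins, where 1.22 bins of 5 or more were expected. The first of these, from 46076501 to 46077000, held 4 positions in the del175k library, so it was well filled in both.

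Around Hif1a the wild-type bin from 75115501 to 75116000 held 6 positions against a mean of 0.622, or 9.64 times (3.54 to 21.0). That bin held 0 in the del175k library, and its q was 0.180. The fullest del175k bin around Hif1a, from 74995501 to 74996000, held 5 positions against 0.660, and 1 in the wild-type library. Around Epas1 the fullest bins held 5 positions in both libraries, the del175k one from 87180001 to 87180500 and the wild-type one from 87175001 to 87175500. The means were 0.782 and 0.882, and bins this full were expected 0.513 and 0.862 times. Each of these maxima was picked for its count out of 400 bins, so its fold overstates the level of the place.

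**Figure D2:**
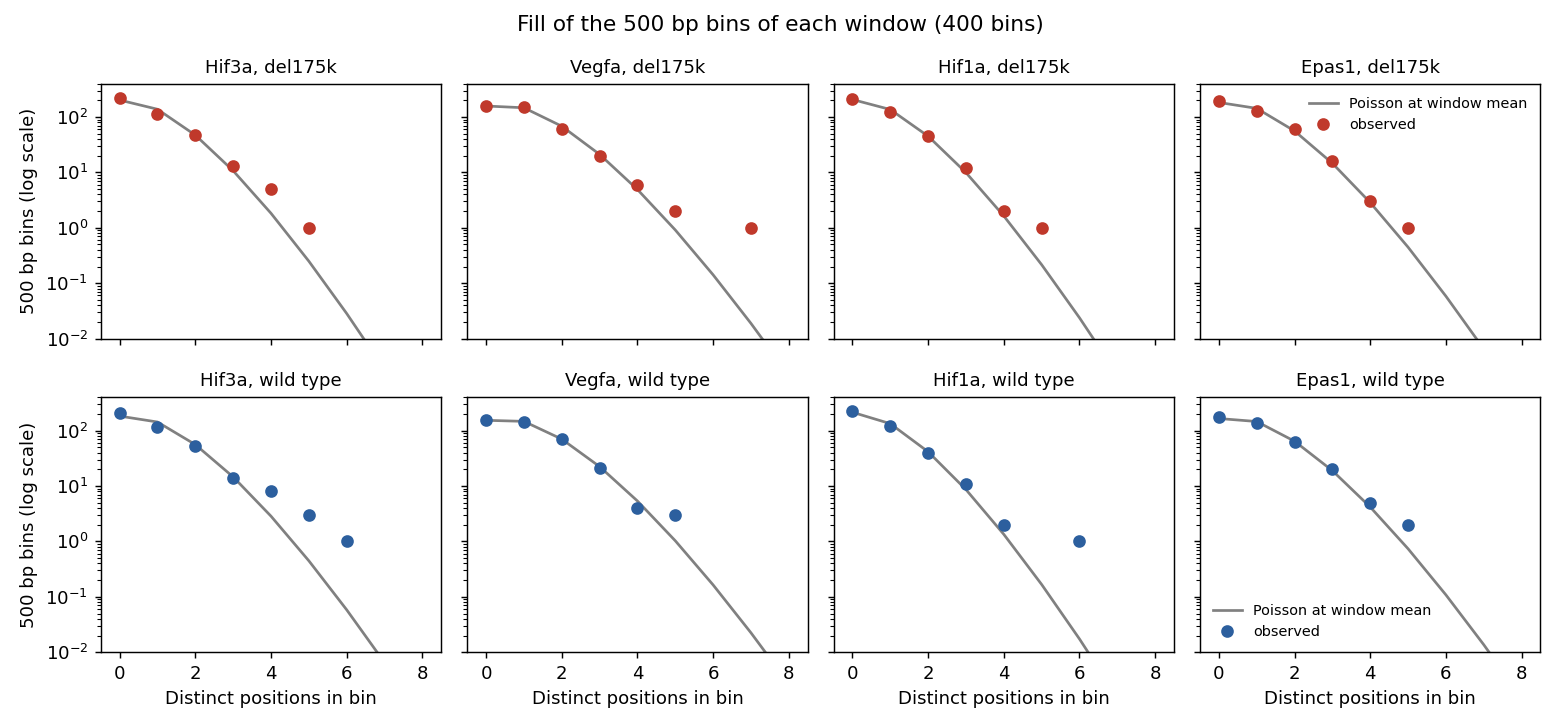
Number of 500 bp bins (log scale) that held 0, 1, 2 and more distinct positions, for each window and library, with the Poisson number at the window mean as a grey line. Observed points keep close to the line up to 3 positions. Beyond that, bins with 5 to 7 positions, up to 3 per window at a given fill, lie above it. Bins with 4 positions lie above it in every panel except wild-type Vegfa, farthest around Hif3a.

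Wider bins gave no call either. In bins of 2 kb, 0 of 400 were called in either library, where 0.0123% (del175k) and 0.0136% (wild type) of autosomal bins were. The fullest were 2 wild-type bins with 12 positions each. One lay around Hif3a from 17620001 to 17622000, at 3.83 times its window mean (1.98 to 6.70), and held 2 positions in the del175k library. The other lay around Epas1 from 87096001 to 87098000, at 3.40 times (1.76 to 5.94), and also held 2 positions in the del175k library. In the del175k library the fullest 2 kb bins held 9 positions around Hif3a, 10 around Vegfa, 8 around Hif1a and 10 around Epas1. The Epas1 bin, from 87180001 to 87182000, held 10 positions in the wild-type library too, and the Hif3a bin, from 17676001 to 17678000, held 8 there.

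In bins of 10 kb, 0 of 80 were called in either library, against 0.0514% and 0.0740% of all autosomal bins. The fullest held 30 positions in both libraries. In the del175k library it lay around Vegfa from 46100001 to 46110000, at 1.61 times the window mean (1.09 to 2.30). In the wild-type library it lay around Hif3a from 17600001 to 17610000, at 1.92 times (1.29 to 2.74), and the del175k library held 23 positions there. The lowest q of any 10 kb bin in the windows, 0.104, belonged to this Hif3a bin. The fullest del175k bin around Hif3a, with 25 positions, was the next 10 kb on, and 19 wild-type positions fell in it. Around Epas1 the bin from 87220001 to 87230000 was fullest in the del175k library, with 25 positions, and among the 2 fullest in the wild-type library, with 29. Around Hif1a the fullest bins held 19 del175k and 24 wild-type positions, 30 kb apart. At none of the 3 bin sizes did the first fullest bin of a window, by lowest start where tied, fall in the same place in both libraries. With 400, 100 or 20 bins per window a match is improbable anywhere. The share of matches over other autosomal windows was not measured, so this absence does not set the windows apart.

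**Figure D3:**
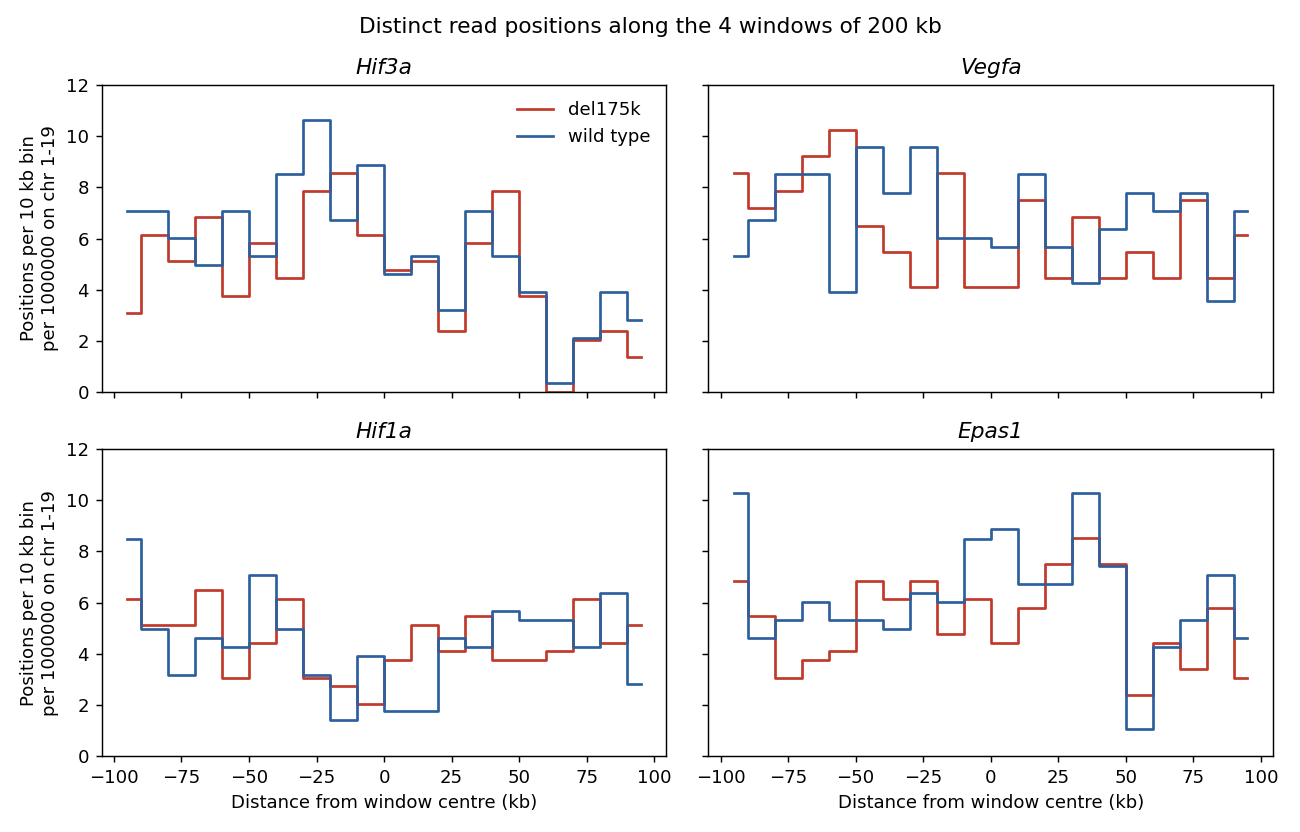
Distinct positions per 10 kb bin, per 1000000 positions on chromosomes 1 to 19, against the distance from the centre of each window, for the del175k (red) and wild-type (blue) library. At this bin size the libraries are most alike around Hif3a and Epas1, with the near-empty bin 65 kb right of the Hif3a centre in both, and least alike around Vegfa.

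In 10 kb bins, the course of coverage was most alike in the libraries around 2 of the genes. Across the 20 bins of 10 kb, the del175k and wild-type counts had a Pearson r of 0.700 and a Spearman rho of 0.631 around Hif3a, and 0.657 and 0.630 around Epas1. Around Hif1a they were 0.300 and 0.252, and around Vegfa -0.03 and 0.04. Across the 100 bins of 2 kb, r and rho were 0.376 and 0.419 around Hif3a, and 0.204 and 0.178 around Epas1. At that size they were 0.239 and 0.300 around Hif1a, and 0.208 and 0.173 around Vegfa, so Epas1 did not stand apart from these. These values describe neighbouring bins of 1 pair of libraries, which share the genome's mappability and base composition. The Hif3a window has a sparse right side. Its bin from 17690001 to 17700000 held 0 del175k and 1 wild-type positions, and the longest stretch without a position was 17322 bp (del175k) and 9839 bp (wild type). In the other 3 windows the longest such stretch was between 3105 and 6015 bp. The Epas1 window had its low point 55 kb right of its centre, with 7 and 3 positions.

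Few 10 kb bins differed between the libraries, about as many as elsewhere. Of the 80 bins 70 held 20 or more positions in both libraries together and were compared, and in 3 (4.29%) the 95% interval of the ratio excluded 1. Over the autosomes the share was 4.16%. Both Vegfa bins among the 3 lie left of the window centre and go in opposite directions. The bin from 46100001 to 46110000 held 30 del175k and 11 wild-type positions, a ratio of 2.63 (1.28 to 5.81). That from 46130001 to 46140000 held 12 and 27, which gives 0.428 (0.198 to 0.875). The remaining bin, at the left edge of the Hif3a window from 17530001 to 17540000, held 9 and 20, which gives 0.434 (0.174 to 0.997). Around Hif1a none of 16 and around Epas1 none of 19 compared bins had an interval that excluded 1.

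The nearest enriched 500 bp bins lay well outside the windows. For Hif1a the nearest was 775 kb beyond the window's right edge, from 75905001 to 75905500, with 45 positions in the del175k library (76.0 times its background) and 36 in the wild-type library (63.1 times). For Vegfa it was 6074 kb to the left, from 39985501 to 39986000, with 37 and 55 positions. For Epas1 it was that same place, 47104 kb away, in the del175k library, and a bin of 9 positions 2053 kb away in the wild-type library. On chromosome 7, which carries Hif3a, no 500 bp bin was called in the del175k library, and the nearest of the 9 called in the wild-type library lay 10299 kb from the window.

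The depth sets a high bar for what could have been seen. With the backgrounds of these windows, a 500 bp bin needed 8 to 10 positions to be called. At 80% power this corresponds to a true enrichment of 16.7-fold around Hif3a in the del175k library and 14.5-fold in the wild-type library. For Vegfa the values were 13.5- and 13.1-fold, for Hif1a 17.2- and 16.4-fold, and for Epas1 14.5- and 12.9-fold. A 5-fold enriched 500 bp bin around Hif3a would have been called in 0.848% (del175k) and 1.89% (wild type) of cases. For a 10-fold enriched one the chances were 24.8% and 38.3%. A 20-fold enriched bin would have been called there in 92.7% and 97.3% of cases. All these chances assume Poisson counts and an enrichment that fills the bin, whereas the real bins had extra spread and a site may cross a bin edge. Broader enrichment was more readily seen. In 2 kb bins the fold found with 80% power lay between 5.31 and 6.83, and in 10 kb bins between 2.47 and 2.86, over the 4 windows and both libraries. A 5-fold enriched 500 bp bin around Hif3a would have reached 80% power only with 7 times the distinct positions of the del175k library. For a 3-fold enriched bin, 20.6 times as many were needed, at the same threshold. Whether deeper sequencing of this library could yield that many distinct positions was not tested.

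**Figure D4:**
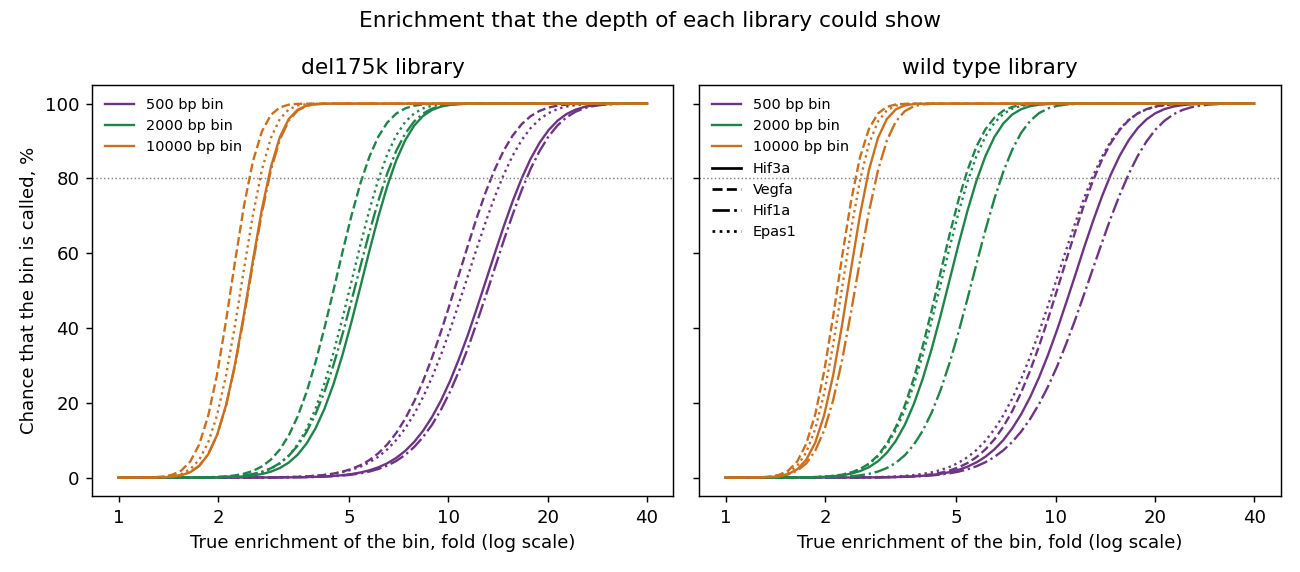
Chance under Poisson counts, in percent, that a bin of 500, 2000 or 10000 bp is called at the threshold used, against its true enrichment (log scale), in the del175k (left) and wild-type (right) library. The dotted line marks 80%, which the 500 bp curves cross between 12.9- and 17.2-fold and the 10000 bp curves between 2.47- and 2.86-fold.

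Differences between the libraries were likewise limited by depth. For a whole window, a del175k to wild-type ratio of 1.24 or of 0.787 around Hif3a would have had an interval that excludes 1 in 80% of cases, and around Vegfa 1.21 or 0.807. For a 10 kb bin of average fill the ratio would have had to reach 2.32 around Hif3a and 2.17 around Vegfa, for 2 kb 4.94 and 4.42, and for 500 bp 12.4 and 10.6. At 500 bp and at 2 kb no reduction in the del175k library, however complete, would have done so in 80% of cases. A single 500 bp bin enriched 20-fold would raise a window's count by only 4.75%, so the ratio of a whole window says little about 1 site. A gain of binding at a Hif3a or Vegfa promoter below these sizes would thus have been missed in over 20% of cases.

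Strand balance and repeated reads were also described for each window, without a comparison to other autosomal windows. Reads on the plus strand made up 53.5% (exact 95% interval 47.4 to 59.5%) and 52.1% (46.4 to 57.7%) of positions around Hif3a, del175k first, and 47.6% (42.4 to 52.8%) and 53.0% (47.9 to 58.1%) around Vegfa. Over all windows and libraries the share lay between 46.2 and 53.8%, and each interval included 50%, as for reads from both strands alike. Repeated reads made up 9.30% and 10.8% of the reads around Hif3a, 5.82% and 13.9% around Vegfa, 10.2% and 7.78% around Hif1a, and 6.85% and 7.35% around Epas1. On chromosomes 1 to 19 they made up 8.22% and 11.6%. No position in the windows held more than 7 reads, a number reached once, around Vegfa in the wild-type library. Each window held at most 1 position found in both libraries. Positions were sparse at this depth and the number shared in other autosomal windows was not measured, so this count does not describe how alike the libraries are.

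Pairs of reads on opposite strands, 150 to 280 bp apart as the 2 ends of a fragment would lie, were more frequent than pairs 500 to 1500 bp apart over the autosomes and, to differing extents, in the windows. Around Hif3a there were 20 such pairs in the del175k library, 1.38 times the number scaled from the longer distances, and 33 in the wild-type library, 1.64 times. Around Epas1 the del175k library had 19 pairs, 1.04 times that number, and the wild-type library 34, or 1.61 times. The 4 windows together had 1.36 and 1.67 times, and the autosomes 1.56 and 1.65 times. The spread of counts over 500 bp bins, as the variance divided by the mean, which is 1 for a Poisson distribution, was 1.25 (del175k) and 1.42 (wild type) around Hif3a. The wild-type value lay above that of 95.1% of autosomal windows, and the del175k value above 74.1%. Around Vegfa it was 1.14 and 1.03, the latter above only 4.30% of autosomal windows. It was 1.12 and 1.18 around Hif1a, and 1.10 and 1.10 around Epas1. The autosomal medians were 1.18 and 1.19, so Hif3a was the only window of the 4 above the median in both libraries. The Hif3a window also held the longest stretches without a position, and their part in this value was not tested.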

How the data were processed

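Reads from ChIP with an antibody against Tnni2 had been placed on the genome by Bowtie, according to the submitters' processing notes. Its version, settings and filters are not given in the sources at hand. The files deposited by the authors list the start, end and strand of each 36 bp read, with a score of 255 on every line that was not used. The series text names mouse reference 8, which the reach of the reads on chromosome 7 goes against.

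Distinct 5′ ends were counted in bins of 500 bp, 2 kb and 10 kb across the genome (chromosomes 1 to 19) and in the 4 windows. Bins were tested with an exact Poisson test with Benjamini-Hochberg adjustment, libraries compared by exact Clopper-Pearson 95% intervals, and detection limits calculated for 80% power. The calling was tried on simulated Poisson counts with single bins raised. Such counts lack the extra spread of the real bins, so the trial gives no rate of false calls or of detection for these data. The genes and windows were chosen with earlier results of these data known. Bins named are the fullest per window, size and library (lowest start if tied) and those whose interval excludes 1. Other pathway genes (Arnt, Egln1, Vhl, Flt1 and others) were not measured, since no annotation of the reads' build was used. Alternatives covered repeats, scaling, window, bin, shift, background and threshold. Counts and tests were made in Python 3.11.15 with pandas 2.3.3, scipy 1.17.1 and numpy 2.4.6, and figures with matplotlib 3.10.9.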

Additional observations from a re-analysis of the deposited data

How the results depend on the processing

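The count of enriched bins in the 4 windows was 0 in each library under all 8 alternatives run (2 kb and 10 kb bins, a 10 kb background, the library mean as background, every read, shifted 5′ ends, bin starts moved by 250 bp, q under 0.05). The ratios kept their direction in the 4 windows except for Vegfa and Hif1a, whose values against windows of like density, an alternative added once the values were known, were 1.01 and 0.995. The interval of Hif3a included 1 with every read (0.859), scaling to its chromosome (0.860), a 100 kb window (0.896) and windows of like density (0.866). That of Epas1 included 1 under the same 4 settings (0.883, 0.876, 0.906 and 0.926) and with a 400 kb window (0.903). Both intervals stayed below 1 when scaled to the median window ratio (Hif3a 0.826, Epas1 0.84) and with shifted 5′ ends (0.841 and 0.855). The Hif3a interval did so with a 400 kb window too (0.877). That of Vegfa fell below 1 with windows of 100 kb (0.806) and 400 kb (0.868). Bins whose ratio interval excluded 1 numbered 5 with every read and 0 at 2 kb, where 1 bin held enough positions to be compared. Of the folds of the fullest bins, 3 of 24 left their interval with the library mean as the expectation and none under the other 3 settings. The causes were not tested. No paired analysis was possible because there was 1 library for each genotype, and none could be left out. At this depth and under Poisson counts, a 10-fold enriched 500 bp bin around Hif3a would be called in 24.8% of cases in the del175k library.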
